A study of Gallus gallus with 3 samples.

Results

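The cells described here are the 113 blood vessel cells of the chicken forelimb field at Hamburger-Hamilton (HH) stages 14 and 10, 40 of them from the HH14 library and 73 from the HH10 library. They were taken from the authors' annotation as the cells whose first-level class is blood vessels and that carry no finer class, out of 2523 annotated cells in the 2 libraries (1313 at HH14 and 1210 at HH10). Expression at HH14 was set against expression at HH10, gene by gene, on the unique molecular identifiers (UMIs, which mark single captured RNA molecules) summed over these cells. The HH14 library, labelled embryonic day 2.5, and the HH10 library, labelled embryonic day 1.5, each came from untreated wild-type embryos of both sexes pooled together. The tissue had been microdissected beside the somites, where the wing bud later forms. There was 1 library per stage, so no test between stages was possible, and the values hold for these pools of embryos.

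The first vessels of an amniote embryo form by vasculogenesis: mesodermal precursors called angioblasts gather into cords that acquire a lumen. Precursors of this kind share TAL1, LMO2 and GATA factors with blood progenitors, while ETS and SOXF factors drive endothelial genes. Once blood flows, the network is remodelled, arterial and venous walls acquire separate gene programmes, and mural cells are recruited. VEGF receptors, TIE receptors, vascular cadherin and the Notch pathway are the best known regulators of these steps.

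Endothelial markers were present in these cells. The class was annotated on these same cells, so the markers describe it and are no separate check of identity. Of 15 endothelial markers listed, 13 were present in the tables under their symbol, and each of these had UMIs at both stages. Every cell had at least 1 of them, and the median cell had 7 at HH14 and 8 at HH10. Together the markers held 5051 CPM (UMIs per 1000000 UMIs of the summed cells) at HH14 and 6301 CPM at HH10, against 89.5 CPM and 72.6 CPM in all other cells of the same libraries. CDH5, the cadherin of endothelial junctions, was detected in 35 of 40 cells at HH14 and 61 of 73 at HH10, and LMO2 in 38 of 40 cells at HH14 and 72 of 73 at HH10. At least 2 markers were found in 38 of the 40 HH14 cells and in all 73 HH10 cells.

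Blood vessel cells made up 3.05% of annotated cells at HH14 (exact 95% interval 2.19 to 4.13) and 6.03% at HH10 (4.76 to 7.53). Intervals throughout are exact 95% intervals that account for counting error alone. The summed cells held 237184 UMIs at HH14 and 597366 at HH10, and the median cell held 3551 UMIs at HH14 and 5562 at HH10. The libraries also differed in a sex-linked gene: HINTW, a gene of the female-specific W chromosome, reached 0.1% of UMIs in 23 of 40 cells at HH14 (57.5%, 40.9 to 72.96) and in 21 of 73 at HH10 (28.8%, 18.8 to 40.6), and in 57.0% and 27.5% of all other cells. In the authors' phase calls 65.0% of HH14 cells were in G1 (48.3 to 79.4) against 34.2% of HH10 cells (23.5 to 46.3). Depth, HINTW and phase thus moved with the stages, and their part in the gene differences was not tested. Folds of some genes depended on the cells used, also that of LMO2 with 373 UMIs at HH14 and 1938 at HH10. Of 88 named genes past 2-fold, 17 were within it for the mean over cells. Of those still measured, 9 of 28 were within it after thinning each cell to 2300 UMIs and 13 of 62 in cells with HINTW under 0.1% of UMIs. Values after thinning or in subsets are given below also for genes left with under 30 UMIs. In them, too, 3 counts stand for a sum of 0. Below, cells with HINTW are those with at least 0.1% of UMIs in it, 23 at HH14 and 21 at HH10. Cells without HINTW are those under 0.1%, 17 at HH14 and 52 at HH10, of which 11 and 32 had no HINTW UMI at all. The 2 libraries shared 1 cell barcode, which belonged to none of these cells.

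A gene was taken as measured when its UMIs at both stages added up to at least 30, which 3913 genes reached. Of these, 189 (4.83%) stood 2-fold or more higher at HH14 and 251 (6.41%) 2-fold or more lower, a fold of 2 being used only to describe size. The interval of the fold lay wholly above 1 for 178 of the 189 and wholly below 1 for 190 of the 251, and it lay beyond 2-fold for 48 and 28. The median log2 fold of all measured genes was -0.05. Because the HH10 sum held 2.52 times as many UMIs, genes confined to HH14 needed a higher level to be measured than genes confined to HH10. In all other cells of the 2 libraries 10571 genes were measured, and 6.80% of them stood 2-fold or more higher at HH14 and 2.83% 2-fold or more lower. Counts within every gene list below are to be read beside the vessel shares of 4.83% and 6.41%. The lists were chosen with earlier results of these data known, so such counts only describe their members.

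**Figure D1:**
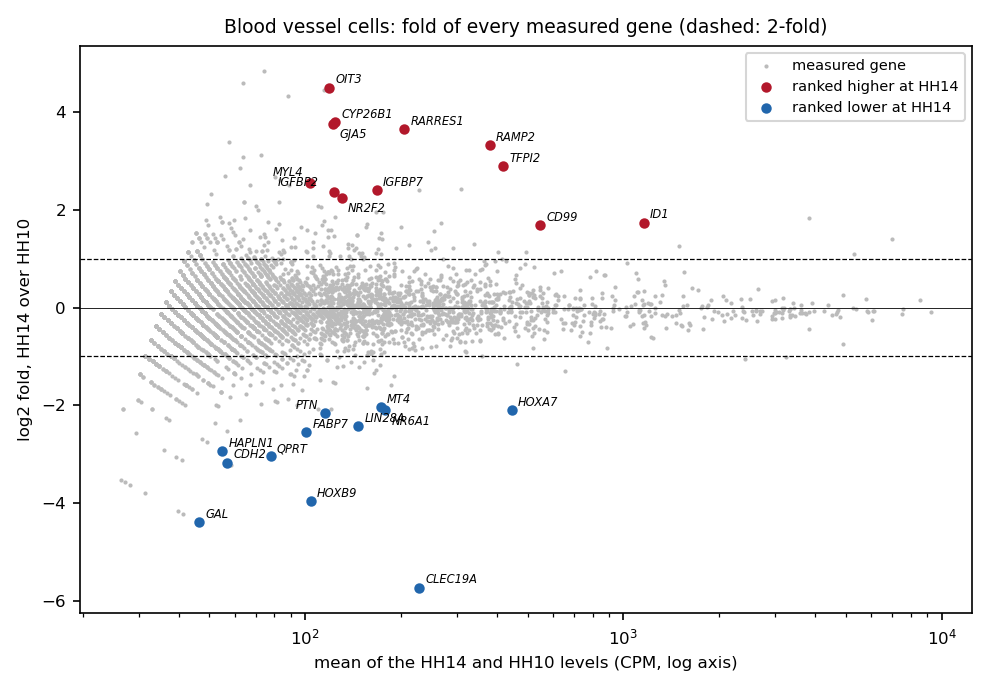
Each point is 1 of the 3913 measured genes in blood vessel cells, with the mean of its HH14 and HH10 levels in CPM on a log axis and its log2 fold (HH14 over HH10) on the vertical axis. The 12 genes ranked highest (red) and the 12 ranked lowest (blue) lie outside the dashed 2-fold lines, from OIT3 at 4.50 to CLEC19A at -5.73, and the scatter widens toward low levels.

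The genes furthest apart were ranked by the bound of the fold's interval nearest to 1, over the 2407 symbol-bearing genes that had at least 50 UMIs. The leading gene at HH14 was OIT3, a secreted protein with a zona pellucida domain known from liver in mammals. It had 228 CPM at HH14 (54 UMIs) and 10.04 CPM at HH10 (6 UMIs), a level 22.7-fold higher at HH14 (9.76 to 64.5), in 17 of 40 cells at HH14 and 2 of 73 at HH10, with 5 of the 6 HH10 UMIs in 1 cell. RARRES1, named as a retinoid-responsive gene, had 379 CPM at HH14 and 30.1 CPM at HH10 and was 12.6-fold higher at HH14 (7.53 to 22.2). RAMP2, the partner protein that turns CALCRL into the adrenomedullin receptor, had 691 CPM at HH14 (164 UMIs) and 68.6 CPM at HH10 (41 UMIs) and was 10.1-fold higher at HH14 (7.12 to 14.6). RAMP2 had UMIs in 29 of 40 cells at HH14 and 18 of 73 at HH10. TFPI2, a secreted inhibitor of serine proteases, had 738 CPM at HH14 and 98.8 CPM at HH10 and was 7.47-fold higher at HH14 (5.53 to 10.2), although 1 cell supplied 49 of its 175 UMIs at HH14. OIT3, RAMP2 and TFPI2 were low outside the vessels. In all other cells OIT3 was at 1.54 CPM at HH14 and 1.78 CPM at HH10, RAMP2 at 2.63 CPM at HH14 and 1.15 CPM at HH10 and TFPI2 at 4.35 CPM at HH14 and 2.93 CPM at HH10.

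Among the other genes ranked high, CYP26B1, an enzyme that degrades retinoic acid, had 232 CPM at HH14 (55 UMIs) and 16.7 CPM at HH10 (10 UMIs) and was 13.9-fold higher at HH14 (6.99 to 30.5). Its log2 fold was 4.74 among cells with HINTW at 0.1% of UMIs or more and 2.21 among the rest. GJA5, the gap junction protein connexin 40 of arteries, had 228 CPM at HH14 (54 UMIs) and 16.7 CPM at HH10 (10 UMIs) and was 13.6-fold higher at HH14 (6.86 to 29.96). NR2F2, the nuclear receptor COUP-TFII required for vein identity in the mouse, had 215 CPM at HH14 and 45.2 CPM at HH10 and was 4.76-fold higher at HH14 (2.93 to 7.89). The insulin-like growth factor binding proteins IGFBP7 and IGFBP2 were 5.27-fold (3.41 to 8.31) and 5.14-fold (3.09 to 8.76) higher at HH14. ID1, a transcriptional target of BMP signalling, was the most abundant of the 12, with 1783 CPM at HH14 and 534 CPM at HH10, and was 3.34-fold higher at HH14 (2.88 to 3.87). CD99, a surface glycoprotein, was 3.24-fold higher at HH14 (2.61 to 4.02), and MYL4, a myosin light chain of embryonic and atrial muscle, 5.88-fold higher at HH14 (3.31 to 10.8). ID1, CD99, NR2F2 and MYL4 were also 2.09-fold higher, 2.496-fold higher, 2.94-fold higher and 1.92-fold higher at HH14 in the other cells.

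At the other end of the ranking stood CLEC19A, a C-type lectin domain protein, with 8.43 CPM at HH14 (2 UMIs) and 447 CPM at HH10 (267 UMIs). Its level was 53.01-fold lower at HH14 (14.5 to 439.9) in blood vessel cells and 8.44-fold lower in all other cells. CDH2, N-cadherin, an adhesion protein of many mesodermal and neural cells, had no UMI in the 40 HH14 cells and 68 UMIs (114 CPM) in 24 of 73 HH10 cells. It was 9.0-fold lower at HH14 when 3 counts over the group stood for the 0. The exact interval of its fold, which counts the error of both sums, began at 7.12-fold lower. By 3 counts of the total, 0 of 40 cells allows up to 7.50% of such cells to have a CDH2 UMI at a median of 3551 UMIs, which sets no limit on cells that express the gene. Among lateral plate and limb mesenchyme cells, 60.7% at HH14 and 52.4% at HH10 had a CDH2 UMI. GAL, the neuropeptide galanin, had 4.22 CPM at HH14 (1 UMI) and 88.7 CPM at HH10 (53 UMIs), in 1 of 40 HH14 cells and 26 of 73 HH10 cells. In the other cells GAL was low at both stages, at 1.63 CPM at HH14 and 1.15 CPM at HH10.

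HOXB9 and HOXA7, which specify position along the body axis, were 15.5-fold (5.17 to 76.2) and 4.29-fold (3.098 to 6.09) lower at HH14. LIN28A, which blocks maturation of let-7 microRNAs in early embryonic cells, had 46.4 CPM at HH14 and 248 CPM at HH10 and was 5.34-fold lower at HH14 (2.9 to 10.9). NR6A1, the germ cell nuclear factor that silences pluripotency genes in the mouse, was 4.29-fold lower at HH14 (2.57 to 7.68). QPRT, an enzyme of NAD synthesis, and FABP7, a fatty acid binding protein, were 8.24-fold (3.1 to 30.9) and 5.84-fold (2.74 to 14.9) lower. HAPLN1, which links hyaluronan to proteoglycans, was 7.68-fold lower at HH14 (2.5 to 38.3), the metallothionein MT4 4.12-fold lower at HH14 (2.46 to 7.38) and the heparin-binding growth factor PTN 4.49-fold lower at HH14 (2.35 to 9.61). Outside the vessels QPRT, FABP7, MT4 and PTN stayed within 2-fold, at HH14 to HH10 ratios of 0.915, 1.11, 1.31 and 0.765. PTN alone of the 24 ranked genes came within 2-fold under any setting, with log2 folds of -0.83 for the mean over cells and -0.97 after thinning.

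**Figure D2:**
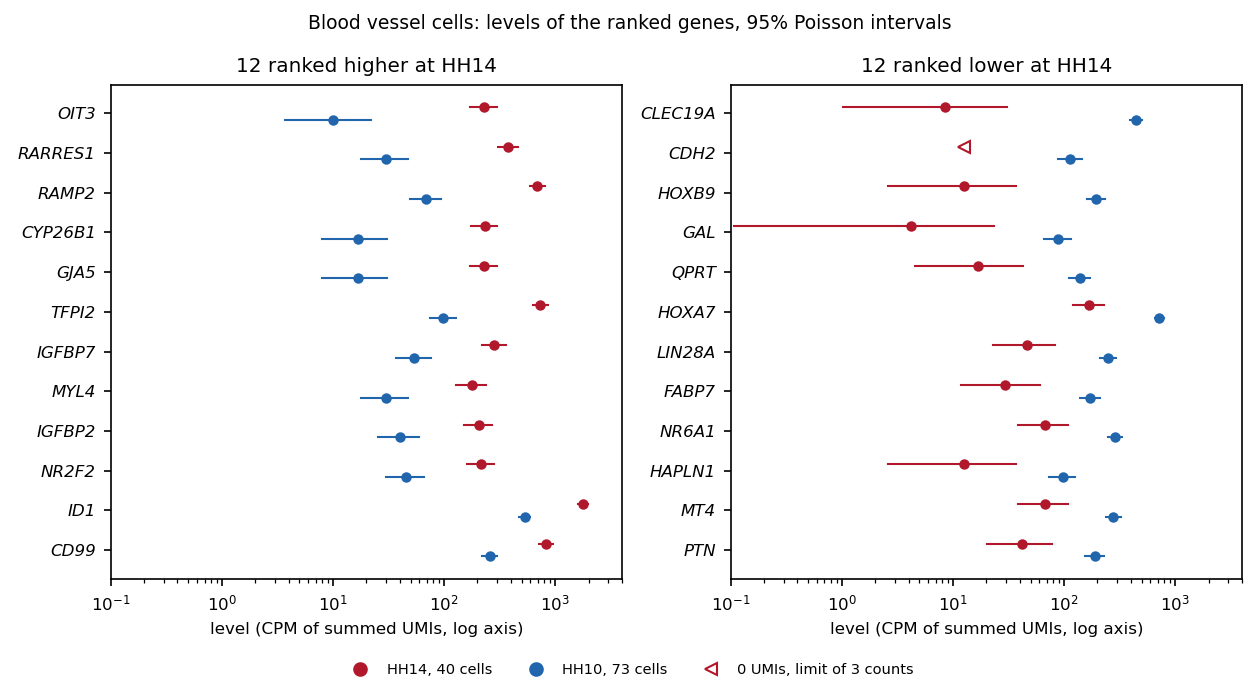
Levels in CPM (log axis) of the 12 genes ranked higher (left panel) and the 12 ranked lower (right panel) at HH14, with HH14 in red above HH10 in blue and 95% Poisson intervals as lines. The intervals of the stages overlap in none of the 24 genes, which follows from ranking by the bound of the fold's interval in the same sums. CDH2 at HH14 is drawn at the limit that 3 counts allow, since it had no UMI.

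The transcription factors of the endothelium differed in both directions. Of 14 measured, 2 passed 2-fold upward at HH14 and 3 downward, with a median log2 fold of 0.13. The 3 lower factors, GATA2, TAL1 and LMO2, are among those shared with blood progenitors. Whether they differ as a kind from the other factors was not tested. GATA2 had 63.2 CPM at HH14 (15 UMIs) and 181 CPM at HH10 (108 UMIs) and was 2.86-fold lower at HH14 (1.66 to 5.28). TAL1, the basic helix-loop-helix factor at the head of blood and endothelial specification, had 105 CPM at HH14 (25 UMIs) and 276 CPM at HH10 (165 UMIs) and was 2.62-fold lower at HH14 (1.71 to 4.17). LMO2, its bridging cofactor, had 1573 CPM at HH14 (373 UMIs) and 3244 CPM at HH10 (1938 UMIs) and was 2.06-fold lower at HH14 (1.85 to 2.31). TAL1 was detected in 13 of 40 cells at HH14 and 45 of 73 at HH10. Each of these cells also had LMO2, which was in 38 of 40 and 72 of 73 cells.

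TAL1 was 2.001-fold higher (1.41 to 2.86) at HH14 in the other cells. There its level was only 9.07 CPM at HH14 and 4.53 CPM at HH10, and haemoglobin genes were abundant at HH14. GATA2 was 2.58-fold lower in the other cells as well. After thinning, TAL1 was found in 15.2% at HH14 and 35.7% at HH10 of the cells kept, and GATA2 and LMO2 had log2 folds of -0.92 and -0.97. LMO2 was also within 2-fold among G1 cells alone (-0.57) and among cells with HINTW (-0.65), and GATA2 at -0.98 when blood vessel cells with a finer class were included.

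The ETS and SOXF factors differed less, with 1 exception. SOX18, FLI1, ETS1 and ERG had HH14 to HH10 ratios of 0.997 (0.812 to 1.22), 0.964 (0.707 to 1.299), 0.784 (0.597 to 1.02) and 1.402 (1.02 to 1.92). SOX17, a SOXF factor tied to arteries in the mouse, had 177 CPM at HH14 (42 UMIs) and 41.9 CPM at HH10 (25 UMIs) and was 4.23-fold higher at HH14 (2.52 to 7.24). In all other cells SOX17 was 12.9-fold lower, at 0.453 CPM at HH14 (5 UMIs) and 5.86 CPM at HH10 (66 UMIs). SOX17 is also among the endoderm markers listed. Those cells mix many classes whose shares were not held equal between libraries, and the part of this in the fold was not tested. It was found in 15 of 40 cells at HH14 and 13 of 73 at HH10 of the blood vessel class. HHEX, a homeobox factor of early endothelium and endoderm, had a ratio of 0.775 (0.641 to 0.931) and was detected in 35 of 40 cells at HH14 and 60 of 73 at HH10. FOXO1, a brake on vessel growth, had only 19 and 21 UMIs and was 2.28-fold (1.16 to 4.45) higher at HH14. The 13 UMIs left after thinning, under the minimum for measurement, gave a log2 fold of -0.09. The flow-induced factor KLF2 was below the minimum for measurement, with 11 UMIs at HH14 and 9 at HH10.

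**Figure D3:**
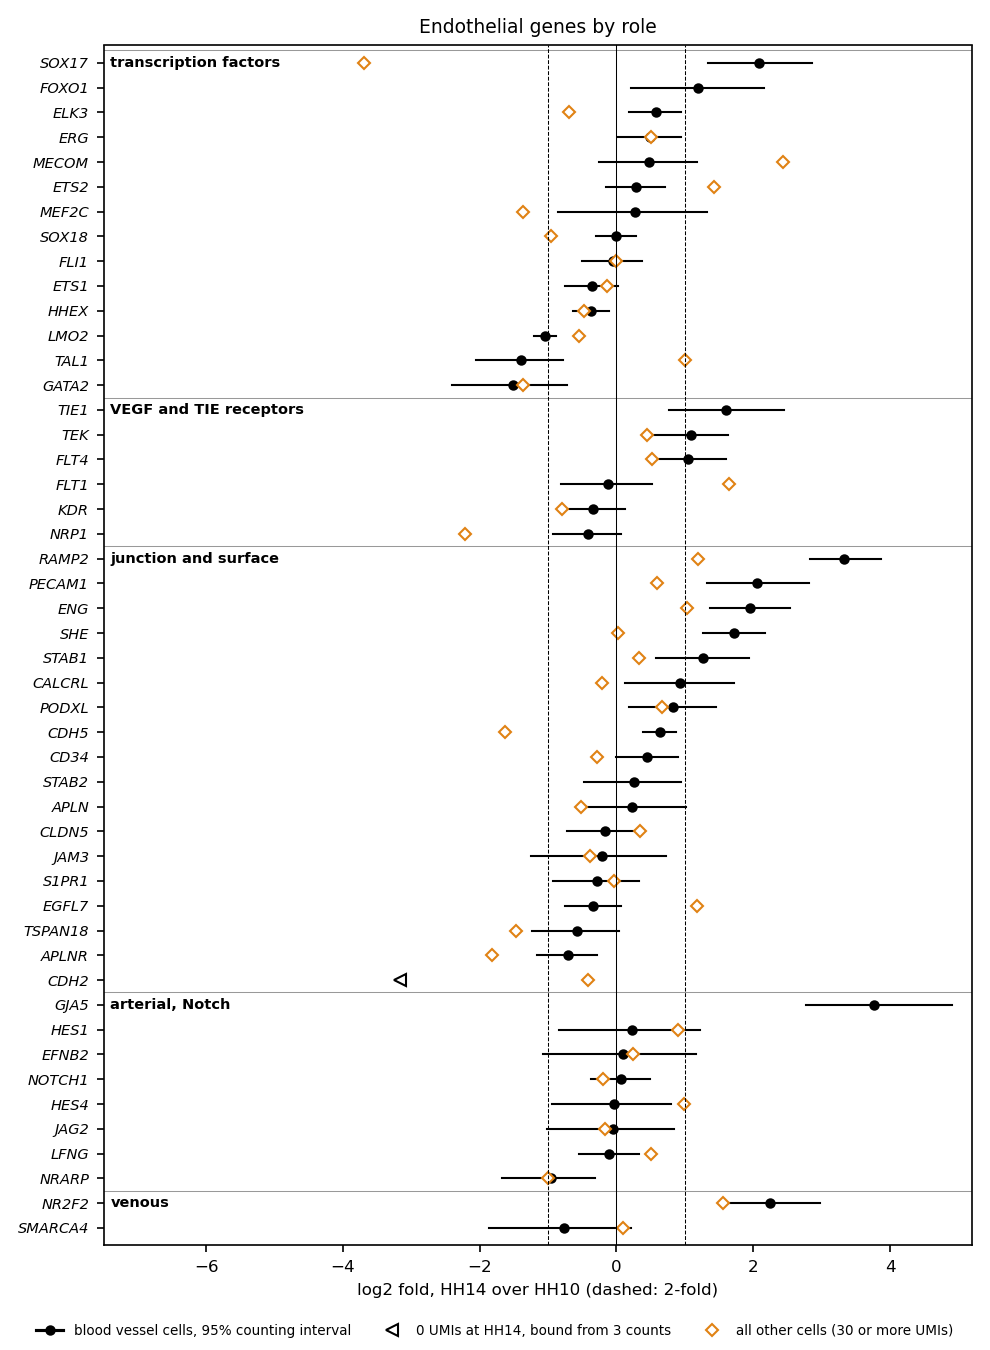
Log2 folds (HH14 over HH10) of the measured endothelial transcription factors, VEGF and TIE receptors, junction and surface, arterial with Notch, and venous genes in blood vessel cells, with 95% counting intervals, and in all other cells where 30 or more UMIs were counted (open diamonds). GJA5 and RAMP2 lie furthest to the right, TAL1 and GATA2 to the left among the factors, and TAL1 and SOX17 are past 2-fold on opposite sides of 0 in the 2 groups of cells. Diamonds also lie across 0 from the vessel value for genes within 2-fold in vessels, CDH5, EGFL7 and FLT1 among them.

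The main VEGF receptors had intervals that included a ratio of 1, while TIE receptors were higher at HH14. KDR, the principal VEGF receptor of endothelium, had 207 CPM at HH14 and 263 CPM at HH10, a ratio of 0.786 (0.558 to 1.09). FLT1, which traps VEGF, had a ratio of 0.916 (0.572 to 1.43), and the co-receptor NRP1 one of 0.747 (0.526 to 1.04). FLT4, the VEGFC receptor of veins and lymphatics, had 207 CPM at HH14 (49 UMIs) and 100.4 CPM at HH10 (60 UMIs) and was 2.06-fold higher at HH14 (1.38 to 3.05). TIE1 had 122 CPM at HH14 (29 UMIs) and 40.2 CPM at HH10 (24 UMIs) and was 3.04-fold higher at HH14 (1.71 to 5.46), and TEK, the angiopoietin receptor TIE2, had 236 CPM at HH14 (56 UMIs) and 110.5 CPM at HH10 (66 UMIs) and was 2.14-fold higher at HH14 (1.47 to 3.098). The folds of FLT4 and TEK came within 2-fold for the mean over cells, at log2 values of 0.82 and 0.90.

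Subsets of cells by HINTW, set at 0.1% of UMIs after the data were seen, gave different sizes for the TIE receptors. TEK had a log2 fold of 3.84 among cells with HINTW and of 0.31 among cells without, and TIE1 one of 2.95 and 0.81. Thinning brought FLT4, TEK and TIE1 to 0.46, 0.53 and 0.86. The angiopoietins ANGPT1 and ANGPT2 had 1 UMI each at HH14 and none at HH10.

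Genes of endothelial junctions and the cell surface were more often higher than lower. Of 19 measured, 6 had a level at HH14 2-fold or more higher and 1, CDH2, 2-fold or more lower, beside 4.83% and 6.41% of all measured genes, and their median log2 fold was 0.45. PECAM1 (CD31), an adhesion molecule of the endothelial border, had 181 CPM at HH14 (43 UMIs) and 43.5 CPM at HH10 (26 UMIs) and was 4.17-fold higher at HH14 (2.502 to 7.06). It was found in 17 of 40 cells at HH14 and 11 of 73 at HH10, so at either stage most cells with CDH5 had no PECAM1 UMI. ENG (endoglin), a co-receptor for BMP9 and BMP10, had 278 CPM at HH14 and 71.98 CPM at HH10 and was 3.87-fold higher at HH14 (2.59 to 5.82). SHE, an adaptor protein, was 3.301-fold higher at HH14 (2.41 to 4.53), and the scavenger receptor STAB1 2.39-fold higher at HH14 (1.49 to 3.83). STAB1 had a log2 fold of 0.82 for the mean over cells and 0.99 among cells without HINTW. RAMP2 and TIE1, the remaining members of the 6, are given above.

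CDH5 itself had 957 CPM at HH14 (227 UMIs) and 616 CPM at HH10 (368 UMIs), a ratio of 1.55 (1.31 to 1.84), and CALCRL, the receptor that RAMP2 serves, one of 1.91 (1.09 to 3.31). Several genes of the early plexus were flat or lower: CLDN5, a tight junction claudin, had a ratio of 0.893 (0.603 to 1.297), EGFL7 one of 0.792 (0.591 to 1.05) and the apelin receptor APLNR one of 0.611 (0.449 to 0.819). APLNR was detected in 18 of 40 cells at HH14 and 62 of 73 at HH10. CDH2 was found in 20 of the 61 CDH5-positive cells at HH10, beside 24 of all 73, and in none of the 40 HH14 cells.

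Some endothelial genes stood under 30 UMIs in all yet lay mostly on the HH14 side. VWF, the von Willebrand factor of platelet adhesion, had 16 UMIs in 8 of 40 cells at HH14 and 1 UMI at HH10, a ratio of 40.3 (6.26 to 1689.9), and none in the other cells of either library. TMEM100, a membrane protein induced by BMP9 in mouse endothelium, had 22 and 4 UMIs, a ratio of 13.9 (4.705 to 55.3), with 10 of the 22 in 1 cell. LYVE1, a hyaluronan receptor of lymphatic and some embryonic endothelium, had 7 and 1. The water channel AQP1 had 17 and 6, but in the other cells it had 245 UMIs at HH14 and 4 at HH10. The part of RNA from those cells in its vessel counts was not tested. ADGRF5 of the same list leaned to HH10, with 1 UMI at HH14 and 8 at HH10.

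**Figure D4:**
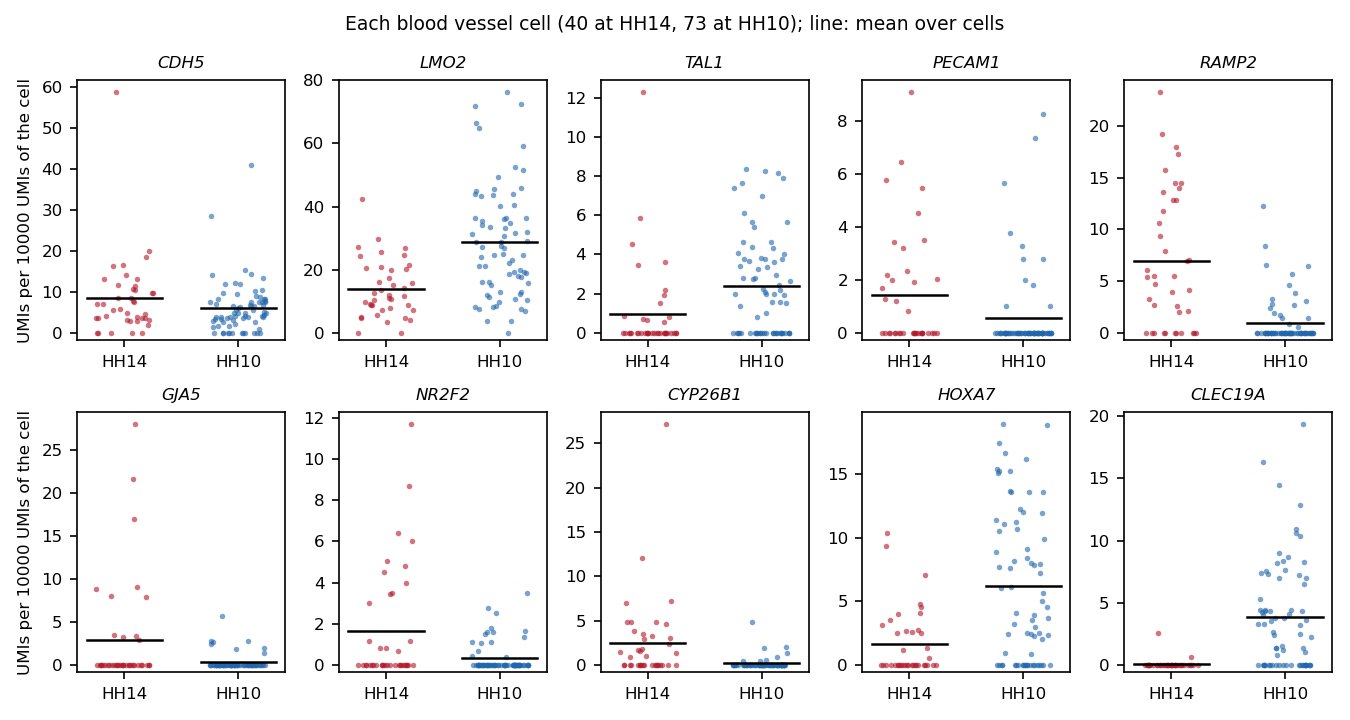
UMIs per 10000 UMIs of the cell for 10 genes, 1 point per blood vessel cell, with HH14 (40 cells, red) left of HH10 (73 cells, blue) and a line at the mean over cells. CDH5 and LMO2 are present in most cells at both stages, GJA5 and NR2F2 in a minority of HH14 cells, and CLEC19A in 2 HH14 cells against 48 HH10 cells.

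Arterial connexins were higher at HH14, while most Notch pathway genes had ratios near 1. GJA5 was detected in 11 of 40 cells at HH14 and 8 of 73 at HH10, and the 11 HH14 cells held 54 UMIs, 13 of them in 1 cell. All other cells held 4 GJA5 UMIs at HH14 and 0 at HH10. GJA4, connexin 37, and HEY2, an arterial Notch effector, were below the minimum for measurement but leaned the same way, with 13 and 15 UMIs at HH14 against 7 and 6 at HH10, or ratios of 4.68 (1.73 to 13.8) and 6.296 (2.31 to 19.8). NOTCH1 had 269.8 CPM at HH14 and 258 CPM at HH10, a ratio of 1.05 (0.769 to 1.41). The ligand JAG2, the glycosyltransferase LFNG and the arterial ephrin EFNB2 had ratios of 0.969 (0.496 to 1.797), 0.929 (0.683 to 1.25) and 1.07 (0.475 to 2.23), and the feedback regulator NRARP one of 0.513 (0.312 to 0.808). Of 10 measured arterial and Notch genes, 2 (GJA5 and SOX17) were at least 2-fold higher and none at least 2-fold lower, with a median log2 fold of 0.01. CXCL12, a chemokine of arterial remodelling, went the other way with 1 UMI at HH14 and 26 at HH10, and was 3.497-fold lower in the other cells.

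The fold of GJA5 varied with the cells used, from a log2 value of 2.04 among cells without HINTW to 4.74 among those with it, and stayed past 2-fold in each of 12 settings. Among venous and lymphatic genes, 3 of 5 measured were at least 2-fold higher at HH14, beside 4.83% of all measured genes, namely NR2F2, FLT4 and TEK. FLT4 and TEK came within 2-fold in the settings given above, and TEK counts in more than 1 list. NR2F2 was detected in 16 of 40 cells at HH14 and 15 of 73 at HH10. Lateral plate and limb mesenchyme had NR2F2 in more of its cells, 80.4% at HH14 and 45.4% at HH10, and the part of RNA from those cells in the vessel counts was not tested. Both GJA5 and NR2F2 were found in 5 of 40 cells at HH14 and in 0 of 73 at HH10. At HH14, 6 further cells had GJA5 alone, 11 had NR2F2 alone and 18 had neither. Of the 17 HH14 cells with OIT3, 11 had NR2F2 and 6 had GJA5, beside 16 and 11 of all 40 HH14 cells. Whether OIT3 goes more with either gene was not tested.

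Genes that respond to blood flow or set vessel tone gave 3 of 6 measured at 2-fold or more higher at HH14 and 0 lower, beside 4.83% and 6.41% of all measured genes. NOS3, the endothelial nitric oxide synthase, had 71.7 CPM at HH14 (17 UMIs) and 25.1 CPM at HH10 (15 UMIs) and was 2.85-fold higher at HH14 (1.34 to 6.14). ECE1, the endothelin-converting enzyme, had 88.5 CPM at HH14 and 35.2 CPM at HH10 and was 2.52-fold higher at HH14 (1.31 to 4.85). TEK, already counted among the venous genes, is the third. NPR3, the natriuretic peptide clearance receptor, lay below the minimum with 18 UMIs in 4 HH14 cells and 1 at HH10. In G1 cells alone the log2 fold of NOS3 was 0.68, and after thinning 0.86. Tip cell and sprouting genes gave 1 higher and 1 lower of 8 measured. KCNE3, a potassium channel subunit, had 105 CPM at HH14 (25 UMIs) and 23.4 CPM at HH10 (14 UMIs) and was 4.497-fold higher at HH14 (2.25 to 9.36), while the matrix adhesion protein TGFBI had 12.6 CPM at HH14 (3 UMIs) and 85.4 CPM at HH10 (51 UMIs) and was 6.75-fold lower at HH14 (2.18 to 33.8). PDGFB, with which sprouts attract mural cells, had a ratio of 1.59 (0.704 to 3.45), and ESM1, a tip cell marker, 7 and 17 UMIs.

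In the BMP and TGF-beta list the ID genes stood furthest apart. Of 14 measured members 3 were at least 2-fold higher (ID1, ID3 and ENG) and 2 at least 2-fold lower (ID4 and BMP2), with a median log2 fold of 0.03. ID3 had 139 CPM at HH14 (33 UMIs) and 21.8 CPM at HH10 (13 UMIs) and was 6.39-fold higher at HH14 (3.28 to 13.2). ID4 had 4.22 CPM at HH14 (1 UMI) and 78.7 CPM at HH10 (47 UMIs), a ratio of 0.0536 (0.00133 to 0.314), with 17 of the HH10 UMIs in 1 cell. Thinning left ID4 no UMI at HH14, so its log2 value of -0.79 there is a bound with 3 counts for the 0. It does not show a smaller difference. ID2 was in between at a ratio of 0.6197 (0.404 to 0.924). The receptors ACVR1, ACVR2B and TGFBR2 and the transducers SMAD1 and SMAD5 had ratios of 1.14 (0.639 to 1.98), 0.747 (0.467 to 1.16), 1.37 (0.806 to 2.27), 1.43 (0.795 to 2.51) and 0.914 (0.655 to 1.26). BMP2, a ligand, was 2.88-fold lower at HH14 (1.01 to 11.3). Its log2 value was -0.02 for the mean over cells and 1.50 after thinning, the latter on under 30 UMIs. BAMBI, a decoy receptor that dampens the pathway, had a ratio of 0.552 (0.335 to 0.873). ID1 and ID3 were 2.09-fold higher and 3.23-fold higher in other cells as well.

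Basement membrane and matrix genes included 4 of 15 measured at 2-fold or more higher and 2 lower, and their median log2 fold was 0.40. COL4A1, a chain of collagen IV, had 253 CPM at HH14 (60 UMIs) and 95.4 CPM at HH10 (57 UMIs) and was 2.65-fold higher at HH14 (1.81 to 3.88). LAMA1, a laminin chain, was 3.15-fold higher at HH14 (1.86 to 5.37). HSPG2, the proteoglycan perlecan, completes the 4 at 2.37-fold (1.401 to 3.99) and was named after its values were seen. MMRN1, a multimerin made by endothelium and platelets, had 143 CPM at HH14 (34 UMIs) and 23.4 CPM at HH10 (14 UMIs) and was 6.12-fold higher at HH14 (3.197 to 12.3), with 1 UMI in all other HH14 cells and none at HH10. FN1, fibronectin, and the laminin chain LAMA5 were 4.05-fold (1.63 to 13) and 3.87-fold (1.397 to 14.9) lower, on 5 and 4 UMIs at HH14. After thinning, MMRN1, HSPG2, FN1 and LAMA5 were within 2-fold, at log2 values of 0.60, 0.60, -0.65 and -0.65. Those of MMRN1, FN1 and LAMA5 rested on under 30 UMIs, the minimum for measurement. MMRN1 had a log2 fold of 3.91 among cells with HINTW and 1.45 among those without, HSPG2 one of 0.58 without and LAMA5 one of -0.59 with it. FN1 had a ratio of 1.09 in the other cells. COL4A1 had a log2 fold of 0.89 for the mean over cells, 2.69 among cells with HINTW and 0.78 among those without, and LAMA1 one of 0.68 among those without. Of 8 measured integrin genes, 1 was at least 2-fold higher, ITGA9 at 2.22-fold (1.03 to 4.73), and ITGB1, the common beta chain, had a ratio of 1.85 (1.44 to 2.37). The log2 fold of ITGA9 came to 0.47 for the mean over cells, 0.50 after thinning and 0.41 among cells with HINTW, each within 2-fold.

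Retinoic acid genes differed in both directions within the vessels. CYP26B1 rested on 21 of 40 cells at HH14 and 8 of 73 at HH10, and in the other cells it was flat and low, at 3.54 CPM at HH14 and 4.09 CPM at HH10. CRABP2, which carries retinoic acid to the nucleus, had 46.4 CPM at HH14 and 149 CPM at HH10 and was 3.21-fold lower at HH14 (1.71 to 6.67), with a ratio of 1.15 in the other cells, where it is abundant. Its log2 fold in vessel cells was -0.56 for the mean over cells and -0.46 with all first-level blood vessel cells. The receptor RARB had 15 and 18 UMIs and a ratio of 2.099 (0.985 to 4.41). Its log2 value was -0.50 after thinning, on under 30 UMIs, and 0.13 among cells without HINTW. Of 6 measured FGF and receptor tyrosine kinase genes, 3 were at least 2-fold higher, IGFBP7, IGFBP2 and PDGFA, and 0 lower. Of all measured genes 4.83% and 6.41% were. The list median of 1.15 reversed to -0.21 without the top cell of each gene and to -0.40 with a minimum of 10 UMIs. PDGFA had 96.97 CPM at HH14 (23 UMIs) and 15.1 CPM at HH10 (9 UMIs) and was 6.44-fold higher at HH14 (2.87 to 15.8), and 6 of its 9 HH10 UMIs came from 1 cell. In the WNT list 0 of 8 measured were at least 2-fold higher and 3 at least 2-fold lower. WNT5B had 4.22 CPM at HH14 (1 UMI) and 51.9 CPM at HH10 (31 UMIs), a ratio of 0.0812 (0.00199 to 0.487), and the WNT inhibitor APCDD1 had 12.6 CPM at HH14 and 53.6 CPM at HH10 and was 4.24-fold lower at HH14 (1.32 to 21.6). WNT5A, the third of these, was 2.88-fold lower at HH14 (1.01 to 11.3), with a log2 fold of -0.81 for the mean over cells. WNT5B and APCDD1 had log2 values of -0.65 and -0.79 after thinning, both on under 30 UMIs. That of WNT5B is a bound with 3 counts for a sum of 0 at HH14. All 3 were lower in the other cells too, 3.41-fold lower, 3.202-fold lower and 3.41-fold lower.

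HOX genes lay on both sides, and early progenitor genes below 1-fold. Of 9 measured HOX genes, 4 were at least 2-fold lower at HH14 and 2 at least 2-fold higher, beside 6.41% and 4.83% of all measured genes, with a median log2 fold of -0.78. The lower ones were of paralogue groups 7 to 9: HOXA7 had 169 CPM at HH14 (40 UMIs) and 723 CPM at HH10 (432 UMIs), HOXB7 was 3.97-fold lower at HH14 (2.001 to 8.96), and HOXB9 had 12.6 CPM at HH14 (3 UMIs) and 196 CPM at HH10 (117 UMIs). HOXB8, which completes the 4, had 287 CPM at HH14 and 638 CPM at HH10 and was 2.22-fold lower at HH14 (1.71 to 2.92). HOXA9 was not among them, at a ratio of 1.07 (0.569 to 1.93), and HOXB4 had a ratio of 1.22 (0.611 to 2.33); HOXB8, HOXA9 and HOXB4 were named after their values were seen. The higher ones were HOXA6 and HOXB5, which were 2.73-fold (1.51 to 4.96) and 2.36-fold (1.39 to 4.01) higher. The other cells showed part of the same pattern, with HOXA7 4.25-fold lower, HOXB8 4.66-fold lower, HOXB9 2.55-fold lower and HOXB5 2.09-fold higher at HH14, while HOXA6 had a ratio of 0.939 there. Thinning gave HOXB8 and HOXB5 log2 folds of -0.80 and 0.08, within 2-fold, and HOXB5 was at 0.72 in G1 cells and 0.98 in cells without HINTW.

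None of 10 measured genes of early mesoderm and progenitors was at least 2-fold higher at HH14 and 4 were at least 2-fold lower, with a median log2 fold of -0.79 against -0.73 for the same genes in the other cells. All 10 were below 1-fold. Pou5f3, the chick relative of the pluripotency factor OCT4, had 59.03 CPM at HH14 (14 UMIs) and 164 CPM at HH10 (98 UMIs) and was 2.78-fold lower at HH14 (1.58 to 5.27). CDX4, a caudal factor of the posterior embryo, had 0 UMIs at HH14 and 32 (53.6 CPM) at HH10, or 4.24-fold lower when 3 counts stand for the 0. That value leaves out the counting error of the HH10 UMIs. The 32 UMIs lay in 14 HH10 cells, 10 of them in 1 cell. Among cells without HINTW the log2 value of -0.47 sets the same 3 counts against only part of the 32 UMIs. It therefore does not show a smaller difference. TRIM71, a let-7 target of early embryonic cells, had a ratio of 0.5002 (0.3696 to 0.667), just inside 2-fold.

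Blood and mesenchymal genes were checked because these cells could lie in the same droplets. Haemoglobin UMIs were present in the HH14 vessel cells, with HBZ at 219 CPM at HH14 and 10.04 CPM at HH10, and the gene was found in 67.5% at HH14 and 8.22% at HH10 of vessel cells. Mesenchyme cells, which do not make haemoglobin, had it in 75.3% at HH14 and 10.02% at HH10, at median depths of 7094.5 and 6990 UMIs. Vessel cells were shallower, at medians of 3551 and 5562 UMIs, so these shares are not at equal depth. Since cells that do not make haemoglobin held its UMIs, those in vessel cells are not read as expression. The part of free RNA was not tested. The erythroid markers together held 430 CPM at HH14 and 26.8 CPM at HH10, against 9879 CPM and 50.01 CPM in the other cells, and HBE1 and RHAG were at 0 in both vessel sums. Of 6 measured genes of primitive blood and haemogenic endothelium, 0 were at least 2-fold higher and 3 (GATA2, TAL1 and LMO2) lower. RAC2, a haematopoietic GTPase, had a ratio of 1.62 (1.02 to 2.53). Of the leukocyte markers, PTPRC (CD45), CSF1R, SPI1 and LCP1 had no UMI at HH14. At HH10 CSF1R, SPI1 and LAPTM5 had none, while PTPRC and LCP1 had UMIs. The 7 leukocyte markers present, RAC2 among them, held 160 CPM at HH14 (38 UMIs) and 95.4 CPM at HH10 (57 UMIs), against 1.54 CPM and 2.49 CPM in the other cells. Most of these vessel UMIs at both stages were of RAC2 alone, so the sums do not describe the markers as a set. At least 1 marker was found in 19 of 40 HH14 cells and 26 of 73 HH10 cells, and 2 or more in 1 cell at each stage.

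Markers of lateral plate and limb mesenchyme were low and lower at HH14, at 54.8 CPM against 144 CPM at HH10, with 1234 CPM and 1253 CPM in the other cells. Of the 11 markers, PRRX2, TBX5, PDGFRA, GATA4 and TCF21 were at 0 in both sums. At least 1 marker was found in 10 of 40 HH14 cells and 46 of 73 HH10 cells, and 2 or more in 1 and 14 cells. HAND2, a lateral plate and heart factor, had 12.6 CPM at HH14 (3 UMIs) and 82.03 CPM at HH10 (49 UMIs), in 3 HH14 cells and 32 HH10 cells, of which 28 also had CDH5. HAND2 was present in 74.2% at HH14 and 90.7% at HH10 of mesenchyme cells, and the part of their RNA in the vessel counts was not tested. GATA5, a factor of heart and endocardium, was 3.11-fold higher at HH14 (1.56 to 6.28) on 21 and 17 UMIs. Smooth muscle and pericyte markers held 392 CPM at HH14 and 104 CPM at HH10, against 775 CPM and 304 CPM in the other cells, and TAGLN, MYH11, CNN1 and RGS5 were at 0 at both stages. In a longer smooth muscle and pericyte gene list, 3 of 8 measured genes were at least 2-fold higher and 0 lower. They were contractile genes shared with many cell types: MYL9 at 3.13-fold (2.18 to 4.497), CNN2 at 2.79-fold (1.84 to 4.25) and TPM1 at 2.42-fold (1.72 to 3.39) higher at HH14. Of these only MYL9 is also one of the markers summed above, and it was 2.24-fold higher in the other cells. TPM1 had a log2 fold of 0.87 after thinning. Primitive streak markers held 8.43 CPM at HH14 and 80.4 CPM at HH10, against 39.4 CPM and 565 CPM in the other cells.

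Fewer HH14 cells were called in S phase, while the summed S phase genes lay close between stages. The share of cells called in S phase was 5% at HH14 (2 of 40 cells, 0.611 to 16.9) and 27.4% at HH10 (17.6 to 39.1), and 11.4% and 20.7% in the other cells. Over 28 measured S phase genes the median log2 fold was -0.10, with 0 at least 2-fold higher and 3 at least 2-fold lower, and their summed level was 3166 CPM at HH14 and 3711 CPM at HH10. The 3 lower were CLSPN, RRM2 and HELLS, of the replication checkpoint, nucleotide supply and chromatin, at 2.38-fold (1.06 to 6.28), 2.16-fold (1.38 to 3.53) and 2.096-fold (1.36 to 3.36) lower. With all first-level blood vessel cells they had log2 folds of -0.86, -0.67 and -0.87, each within 2-fold. G2/M genes had a median of -0.19 over 32, again with 0 higher and 3 lower, the mitotic proteins KIF2C, KIF11 and ANLN at 2.53-fold (1.19 to 6.18), 2.22-fold (1.19 to 4.503) and 2.02-fold (1.02 to 4.47). Their calls ended too, KIF2C at -0.60 among cells without HINTW and KIF11 and ANLN at -0.52 and -0.87 among cells with it. Of 7 measured genes of cell cycle exit and G1, 2 were at least 2-fold higher, the inhibitor CDKN1B at 2.22-fold (1.03 to 4.73) and cyclin CCND1 at 2.08-fold (1.32 to 3.27), but neither held under every setting. CDKN1B had a log2 fold of 0.77 for the mean over cells and 0.08 after thinning, and CCND1 one of 0.29 and -0.50.

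Immediate early and heat shock genes gave 2 higher and 3 lower of 17. FOS had 114 CPM at HH14 (27 UMIs) and 26.8 CPM at HH10 (16 UMIs) and was 4.25-fold higher at HH14 (2.21 to 8.44), and the phosphatase DUSP1 had 114 CPM at HH14 and 20.1 CPM at HH10 and was 5.67-fold higher at HH14 (2.78 to 12.3). JUN, singled out after its values were seen, was level in the vessels at 349.9 CPM at HH14 and 335 CPM at HH10, whereas in the other cells it was 10.4-fold higher at HH14 (242 CPM at HH14 and 23.3 CPM at HH10). The vessel level at both stages was above that of the other cells at HH14. HSPH1, a heat shock chaperone, was 3.18-fold lower at HH14 (1.58 to 7.23), HSP90AA1 2.02-fold lower at HH14 (1.83 to 2.22) and MYC 2.21-fold lower at HH14 (1.07 to 5.102). For the mean over cells HSP90AA1 and MYC had log2 folds of -0.92 and -0.19. Glycolysis and hypoxia genes gave 0 of 15 past 2-fold in either direction, with the glucose transporter SLC2A1 at a ratio of 0.517 (0.209 to 1.12) and LDHA, which makes lactate, at 1.49 (0.689 to 3.09). In the transport list the amino acid transporter SLC7A5 was 3.34-fold lower at HH14 (1.32 to 10.8), and the caveola protein CAVIN2 2.83-fold higher at HH14 (1.36 to 5.94). SLC7A5 had a log2 fold of -0.92 in G1 cells, and CAVIN2 one of 0.45 among cells without HINTW. Among 7 measured guidance genes 0 were at least 2-fold higher and 2 lower, the semaphorin receptor PLXNB2 at 2.25-fold (1.29 to 4.196) and the ephrin receptor EPHB3 at 2.22-fold (0.848 to 7.37). PLXNB2 had a log2 fold of -0.32 in G1 cells, and EPHB3 one of -0.38 among cells without HINTW.

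**Figure D5:**
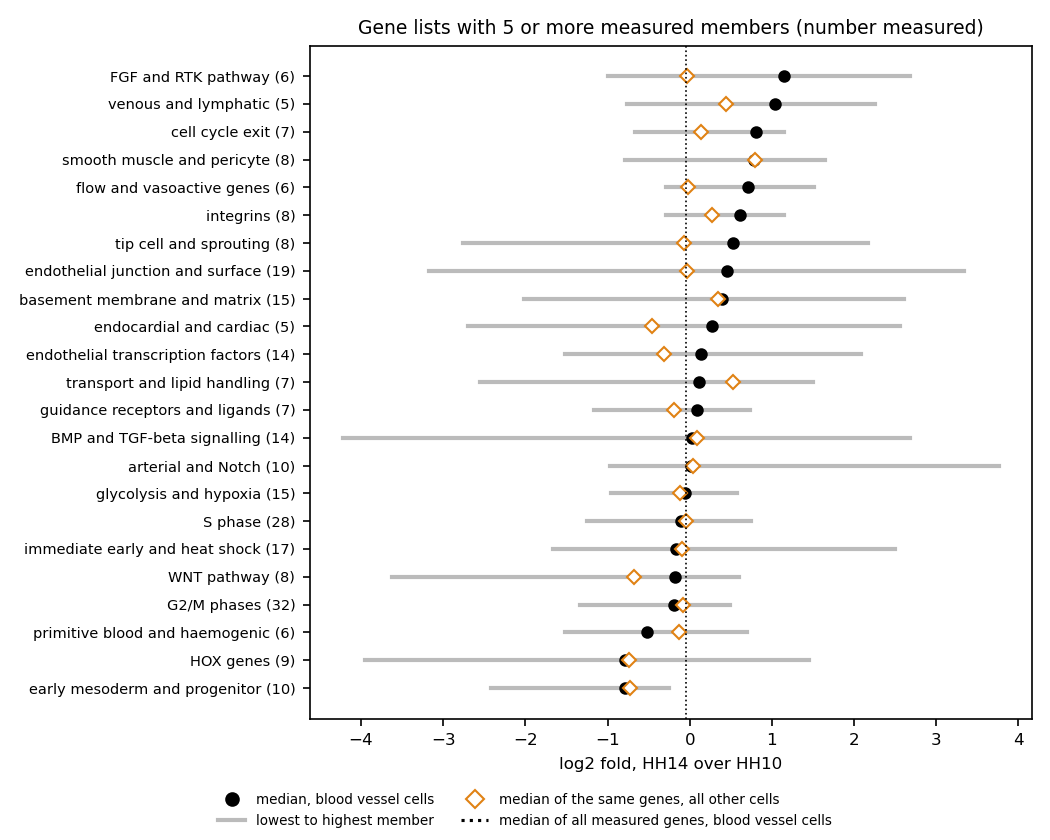
Median log2 fold (HH14 over HH10) of each gene list with 5 or more measured members in blood vessel cells (black points), the range of its members (grey bars) and the median of the same genes in all other cells (open diamonds), with the median of all 3913 genes dotted. HOX and early progenitor lists lie lowest in both groups of cells, and most lists have members on both sides of 0.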

How the data were processed

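Single-cell 3′ RNA libraries of the chicken forelimb field were made with the single cell 3′ V3.1 kit, per the labels' protocols. Cell Ranger 4.0.0 and GRCg6a are named per the submitters' processing notes. The deposited matrices hold raw UMI counts for 16748 genes, of which 4318 carry an identifier with no symbol. The authors' deposited annotation gave classes, cell cycle phases and mitochondrial percent, which reached at most 9.97%.

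UMIs were summed per library over the 40 HH14 and 73 HH10 blood vessel cells and scaled to CPM. Poisson, binomial and Clopper-Pearson 95% intervals were exact. Each stage had 1 library, so no test was run. Sums of 0 were set to 3 counts over the group for the fold, which leaves out the counting error of the other sum. For thinning, each cell was reduced to 2300 UMIs (the 10th percentile), which left out 7 HH14 and 3 HH10 cells. All other annotated cells of the libraries were summed the same way.

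Named genes were the 12 highest and 12 lowest by interval bound (symbol and at least 50 UMIs; haemoglobin, mitochondrial, ribosomal protein and W-linked genes left out), members of the endothelial lists, up to 5 measured members with the largest log2 fold in other lists, and cell type markers. The members and lists were chosen with earlier results of these data known. Scrublet called 5 doublets at HH14 and 2 at HH10 (0.381% and 0.165%), too few to count as working, so doublets were not removed. Python 3.11.15, numpy 2.4.6, scipy 1.17.1, pandas 2.3.3 and scanpy 1.11.5 were used, and the sums were tested on simulated data. How many embryos were pooled is not given in the sources used here.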

Additional observations from a re-analysis of the deposited data

Results flagged for a closer look

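TAL1 and SOX17 each stood past 2-fold in one direction in blood vessel cells and past 2-fold in the opposite direction in all other cells of the same libraries. The difference between the 2 groups of cells was not tested, since each stage has 1 library. The other cells mix many classes whose shares were not held equal between libraries, and the part of this in their folds was not tested. TAL1 had a log2 fold of -1.39 in blood vessel cells (105 CPM at HH14 and 276 CPM at HH10). In the other cells it was 2.001-fold higher at HH14 (9.07 CPM at HH14 and 4.53 CPM at HH10). That fold lay at the 2-fold limit, with an interval of 1.41 to 2.86. SOX17 had a log2 fold of 2.08 in blood vessel cells (177 CPM at HH14 and 41.9 CPM at HH10). In the other cells it was 12.9-fold lower at HH14 (5.27 to 41.1), at 0.453 CPM at HH14 and 5.86 CPM at HH10.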

How the results depend on the processing

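No paired analysis was possible because each stage has only replicate 1. Of 3913 measured genes, 189 were 2-fold or more higher and 251 lower. The number of measured genes changed with the setting, so each count is given beside it. After thinning, 35 were higher and 51 lower of 1298 measured. The counts were 581 and 687 of 6801 with a minimum of 10 UMIs, and 39 and 36 of 1408 with a minimum of 100. With a minimum of 1 they were 1068 and 861 of 11172, and at 4-fold or more 34 and 37 of 3913. Among G1 cells alone 87 of 1980 were lower. Among cells with HINTW at 0.1% of UMIs or more, 114 of 1554 were higher and 66 lower, and among cells under it 118 of 2913 were higher. Both HINTW subsets were chosen after seeing the data. In lateral plate and limb mesenchyme taken as the other cells, 398 of 9166 genes were higher, beside 719 of 10571 in all other cells. Of list medians, junction genes went to 1.07 with HINTW, venous genes to 0.31 without it, matrix genes to 0.99 in G1 cells and 1.08 with HINTW, and transport genes to 0.65 with all first-level blood vessel cells and -0.43 without the top cell of each gene. The FGF and receptor tyrosine kinase median, 1.15, reversed to -0.21 without the top cell of each gene and to -0.40 with a minimum of 10 UMIs. On thinning 4 named genes past 2-fold reversed: FOXO1 to -0.085, CCND1 to -0.50, BMP2 to 1.50 and RARB to -0.50. The cause of these shifts was not tested. Of 88 named genes past 2-fold, 10 were within it with all first-level blood vessel cells. The all-gene median lay between -0.13 (without the top cell of each gene) and -0.02 (G1 cells) over 12 settings. With 237184 UMIs at HH14, 1 UMI is worth 4.22 CPM, which limits low genes.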
